A study of Homo sapiens with 4 samples.

Results

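A set of 10 WNT ligand genes in 6 genomic windows was examined for H3K27me3, histone H3 carrying 3 methyl groups on lysine 27, in HaCaT cells cultured with AKBA and with the solvent DMSO. A peak belonged to the set when it overlapped by at least 1 bp one of 6 windows of the human genome build hg19. The windows were WNT10B/WNT1 (chromosome 12, 49339 to 49397 kb), WNT9A/WNT3A (chromosome 1, 228089 to 228269 kb), WNT3/WNT9B (chromosome 17, 44822 to 44975 kb), WNT6/WNT10A (chromosome 2, 219704 to 219779 kb), WNT7A (chromosome 3, 13840 to 13942 kb) and WNT7B (chromosome 22, 46296 to 46393 kb). Together they span 665 kb. They held 9 of the 13155 AKBA peaks and 9 of the 8890 DMSO peaks, and all of these lay in the 4 windows with a pair of genes.

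HaCaT cells are immortalised human keratinocytes, the cells that make up most of the epidermis. Both cultures lasted 12 hours, 1 with AKBA and 1 with DMSO. The labels do not spell out AKBA, an abbreviation commonly used for an acetylated boswellic acid, and state no dose. Each condition had 1 H3K27me3 library with a peak list and 1 input DNA library with no values used here, so differences below could not be checked against replicates or tested. Read depth is unknown, and a place outside a list may carry the mark below the threshold of the authors' peak caller.

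WNT proteins are secreted, lipid-modified ligands that bind Frizzled receptors with LRP co-receptors. Through these receptors they stabilise beta-catenin or act by routes that do not need it. Several ligand genes sit in neighbouring pairs that arose by duplication, and WNT1 with WNT10B and WNT6 with WNT10A are related pairs, as are WNT3 with WNT9B and WNT3A with WNT9A. In skin, WNT signals take part in hair follicle formation and in the upkeep of epidermal cells. H3K27me3 is laid down by the Polycomb repressive complex that contains EZH1 or EZH2, is associated with silenced developmental genes, and in mammals is often found at CpG-rich gene starts.

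The promoters of 8 of the 10 genes were matched by symbol in RefSeq (build GRCh38.p14), as 300 bases from 250 before to 50 after the gene start. The 4 sequences below, each 5′ to 3′ on the gene's strand with every CG in capitals, are shown because they span marked and unmarked windows. WNT1, WNT3A and WNT6 come from windows with peaks in both lists, and WNT7A comes from a window with none.
WNT1: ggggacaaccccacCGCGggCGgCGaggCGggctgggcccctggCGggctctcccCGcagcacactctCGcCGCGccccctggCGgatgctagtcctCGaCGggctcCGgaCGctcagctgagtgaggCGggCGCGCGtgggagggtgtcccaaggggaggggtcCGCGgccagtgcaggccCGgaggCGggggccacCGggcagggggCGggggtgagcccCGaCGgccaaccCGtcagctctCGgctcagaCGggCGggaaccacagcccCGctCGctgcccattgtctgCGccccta
WNT3A: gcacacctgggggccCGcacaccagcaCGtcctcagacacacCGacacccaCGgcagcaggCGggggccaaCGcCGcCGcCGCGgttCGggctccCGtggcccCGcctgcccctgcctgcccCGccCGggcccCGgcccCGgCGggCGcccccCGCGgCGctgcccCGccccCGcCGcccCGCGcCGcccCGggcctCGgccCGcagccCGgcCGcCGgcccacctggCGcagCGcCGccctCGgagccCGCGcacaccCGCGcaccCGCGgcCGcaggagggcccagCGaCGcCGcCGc
WNT6: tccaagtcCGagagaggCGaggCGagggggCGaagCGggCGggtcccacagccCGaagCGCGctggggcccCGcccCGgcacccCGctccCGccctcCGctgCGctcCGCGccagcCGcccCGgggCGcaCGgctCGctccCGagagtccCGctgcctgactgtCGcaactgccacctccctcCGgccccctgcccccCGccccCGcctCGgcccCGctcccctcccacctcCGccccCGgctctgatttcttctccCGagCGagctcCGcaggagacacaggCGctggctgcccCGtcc
WNT7A: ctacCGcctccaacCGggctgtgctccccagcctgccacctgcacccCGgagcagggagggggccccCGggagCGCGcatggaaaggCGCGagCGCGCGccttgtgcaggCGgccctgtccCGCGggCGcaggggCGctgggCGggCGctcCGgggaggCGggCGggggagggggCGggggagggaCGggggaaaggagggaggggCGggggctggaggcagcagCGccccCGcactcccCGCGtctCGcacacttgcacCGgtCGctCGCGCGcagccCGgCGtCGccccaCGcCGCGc
In GRCh38.p14 these sequences lie at chr12:48978072-48978371 on the plus strand, chr1:228006748-228007047 on the plus strand, chr2:218859555-218859854 on the plus strand and chr3:13880022-13880321 on the minus strand. These positions belong to another build than the hg19 peaks and were not converted, so whether a peak covers a promoter was not analysed here.

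All 8 matched WNT promoters were rich in CG. The letters CG, which read the same on both strands, occurred 34 times in the WNT1 sequence, 49 times in WNT3A, 37 times in WNT6 and 40 times in WNT7A. Across the 8 promoters the count ran from 28 in WNT3 to 53 in WNT9A, against a median of 14 over 35116 RefSeq promoters of the same length. At least 1 CG was present in 96.0% of those promoters, and 26.2% held as many as WNT3 or more. Of the matched promoters, only WNT9A and WNT3A had more CG than WNT7A. WNT7A lies in a window without a called peak, and all other matched promoters lie in windows with peaks. GC content ran from 65.7% in WNT3 to 86.0% in WNT3A.

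**Figure D1:**
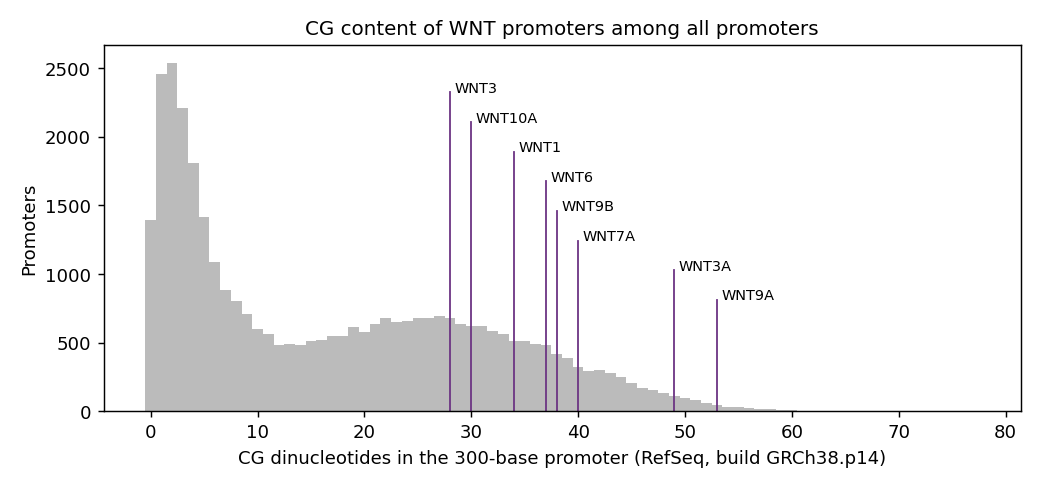
Grey bars give the number of RefSeq promoters (y axis) with each count of CG dinucleotides in 300 bases (x axis). Purple lines mark the 8 matched WNT promoters, from 28 in WNT3 to 53 in WNT9A, all to the right of the median of 14.

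In the RefSeq gene order WNT9A and WNT3A are read away from each other, with their starts facing, and so are WNT3 and WNT9B. WNT6 and WNT10A are read in the same direction with no other gene between them. The interval of WNT9A and WNT3A holds 7 other genes of the table, among them the miRNA gene MIR5008 and LOC124904532, listed as coding. The nearest coding genes on either side are ARF3 and DDN for WNT10B/WNT1, PRSS38 and ARF1 for WNT9A/WNT3A, NSF and GOSR2 for WNT3/WNT9B, PRKAG3 and CDK5R2 for WNT6/WNT10A, FBLN2 and CHCHD4 for WNT7A, and LOC105373071 and LOC124905135 for WNT7B.

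The first question was how much of the WNT windows was called in each condition. Of the 665 kb, 21.4 kb (3.21%) lay in AKBA peaks and 14.7 kb (2.21%) in DMSO peaks. The peak number was the same, at 9 for AKBA and 9 for DMSO, although the ratio ran from 0.857 among peaks of at least 1 kb to 1.29 with close peaks joined. Over the whole lists the AKBA to DMSO ratio was 1.48 for peaks and 1.94 for bases, against 1.00 and 1.45 in the WNT windows. The windows therefore lay below the whole lists in both ratios, and with so few peaks this is a description only. Both lists were denser here than over the stretches between the first and last peak of each chromosome, of which AKBA peaks covered 0.501% and DMSO peaks 0.259%.

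**Figure D2:**
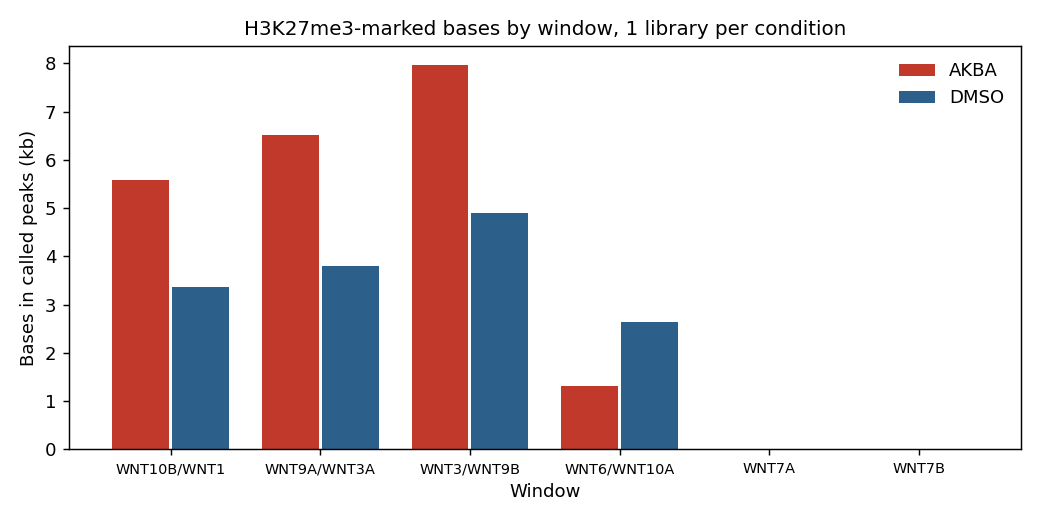
Bars give the bases inside called peaks (kb, y axis) for each window (x axis), AKBA to the left of DMSO, with 1 library per condition and so no error bar. AKBA covers more in 3 paired windows, DMSO covers more in WNT6/WNT10A, and the WNT7A and WNT7B windows are at 0.

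Peaks of the windows tended to be wider than those of their whole lists. Peaks of at least 2 kb were 4 of the 9 AKBA peaks and 2 of the 9 DMSO peaks, against 14.0% and 9.43% of all peaks of those lists. The median width was 1943 bp for the AKBA peaks and 1600 bp for the DMSO peaks of the windows, against 742 and 552.5 bp over the whole lists. The score of a peak is the value the authors gave it, of unstated unit, and peaks were ranked by it only within a list. An alternative setting kept peaks with a score of at least 3 in both lists. Whether that cut is equally strict in the 2 lists is unknown. In the AKBA list 7 of the 9 window peaks, and in the DMSO list 8 of the 9, scored above the median of their own list.

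**Figure D3:**
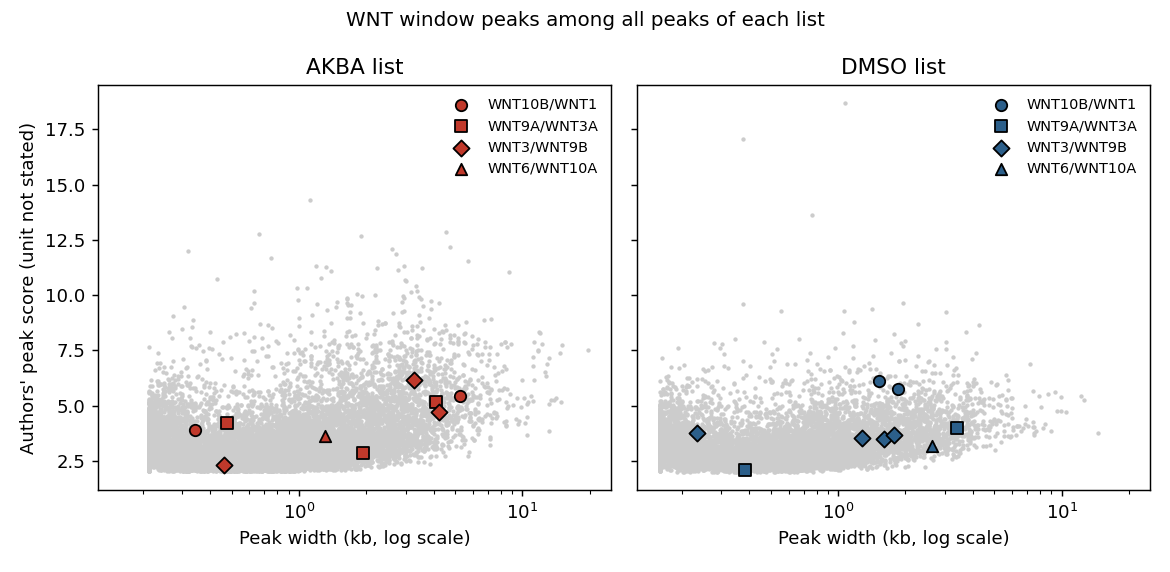
Each point is a peak, with its width (kb, log scale) on the x axis and the authors' score on the y axis, AKBA list on the left and DMSO list on the right. Grey points are all peaks, coloured symbols the 9 WNT window peaks of each list, and scores are to be read within a panel only. The widest AKBA peak of the windows, of 5242 bp, is in WNT10B/WNT1, and the widest DMSO peak, of 3414 bp, is in WNT9A/WNT3A.

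The second question was whether the same places were called. Of the 9 AKBA peaks 6 (66.7%, exact 95% Clopper-Pearson interval 29.9 to 92.5%) overlapped a DMSO peak, against 32.2% of the whole AKBA list. Of the 9 DMSO peaks 8 (88.9%, interval 51.8 to 99.7%) had a base in common with an AKBA peak, against 54.5% of the whole DMSO list. The intervals cover counting error only and treat peaks as independent. When 50% of both peaks had to overlap, 2 of 9 AKBA and 2 of 9 DMSO peaks were shared (22.2% each), against 14.0% and 20.8% of the whole lists, so the DMSO share was then close to that of its whole list. Bases called in both lists came to 12.6 kb, which was 58.8% of the AKBA bases and 85.5% of the DMSO bases in the windows. Overlap went with width. All 6 AKBA peaks of at least 1 kb and all 7 such DMSO peaks in the windows overlapped the other list, against 65.2% and 93.2% of such peaks in the whole lists. Of the peaks under 500 bp, 0 of 3 AKBA and 1 of 2 DMSO peaks did, against 10.1% and 33.9%.

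The 18 peaks formed 9 places when neighbours less than or exactly 5 kb apart, from either list, were put together. Of these, 7 held peaks of both lists, 2 held an AKBA peak alone and 0 a DMSO peak alone, against 35.7%, 46.6% and 17.7% of the 11947 places of the whole lists. In 6 of the 7 common places AKBA peaks covered more bases, against 78.4% of the common places of the whole lists, so the share was close to the background.

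**Figure D4:**
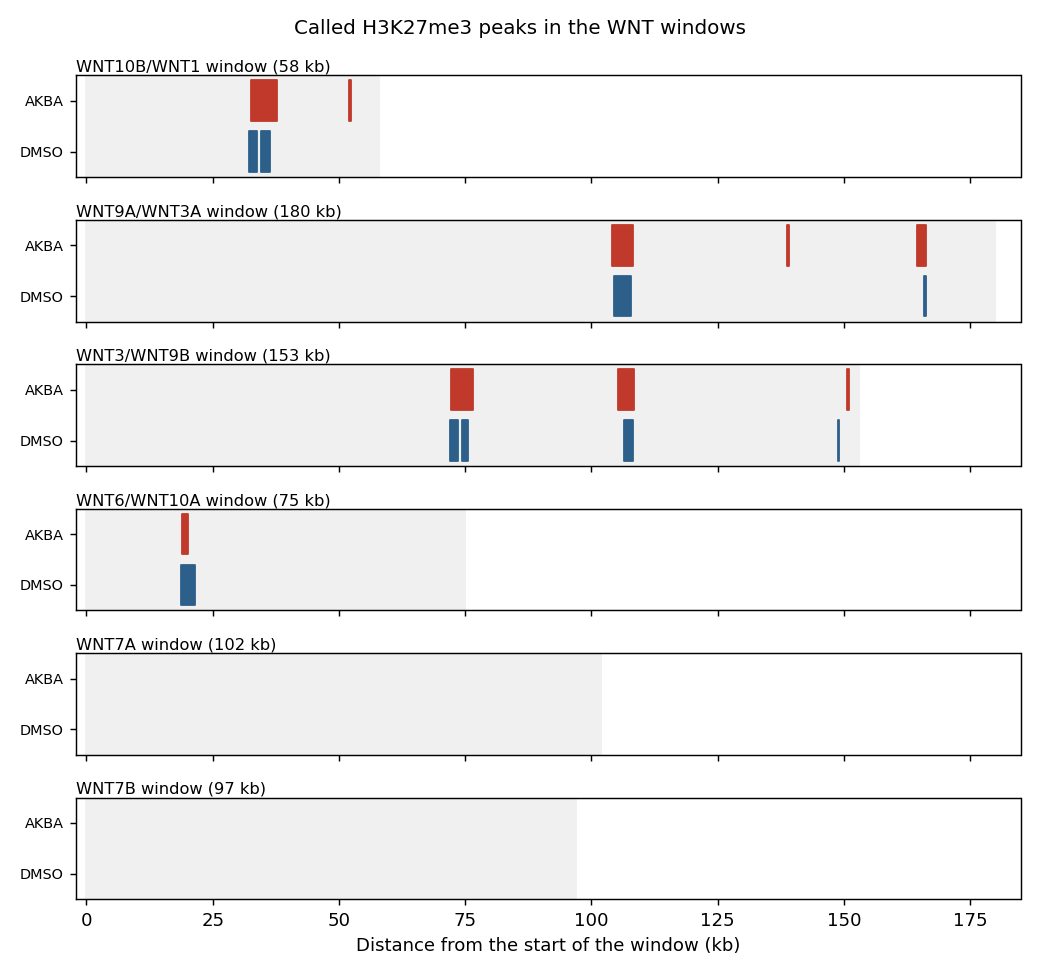
Each panel is a window, drawn in grey to its size, with the distance from its start in kb on the x axis and AKBA peaks above DMSO peaks. Peaks lie in 4 windows, and the WNT7A and WNT7B windows are empty in both lists.

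The WNT10B/WNT1 window was the most densely called in either list, with 9.63% of its 58 kb in AKBA peaks and 5.80% in DMSO peaks. WNT1 is the founding member of the family, needed in the mouse for midbrain formation and in humans for bone strength, and WNT10B is linked to bone, teeth and hair. The mark was centred about 35.0 kb into the window. There a single AKBA peak ran from 49371537 to 49376778, with a width of 5242 bp and a score of 5.44, which was rank 993 of 13155. The DMSO list had a pair of peaks in its place. The left one ran from 49371283 to 49372798, with 1516 bp and a score of 6.10, which was rank 139 of 8890. The right one ran from 49373557 to 49375404, with 1848 bp and a score of 5.74, which was rank 222 of 8890. These were the highest-scoring DMSO peaks of all 6 windows.

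The AKBA peak at WNT10B/WNT1 began 254 bp inside the left DMSO edge and ended 1374 bp beyond the right one. It covered the break of 758 bp between the DMSO peaks. That break is smaller than any gap of the AKBA list, where the minimum was 857 bp, against 641 bp in the DMSO list, so 2 peaks this close do not occur in the AKBA list. A second AKBA peak, from 49391101 to 49391444, was 344 bp wide with a score of 3.92, and the nearest DMSO peak was 15696 bp away. The 2 lists thus shared the central place, and the small peak near the right end of the window was in the AKBA list alone.

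The WNT3/WNT9B window held the most called sequence, 7.96 kb with AKBA and 4.89 kb with DMSO. WNT3 is needed in the mouse for gastrulation and in humans for limb formation, and WNT9B acts in the mouse kidney and face. The number of marked places was 3, at 74.2, 107 and 149.9 kb from the start of the window. At the first, the AKBA peak ran from 44894268 to 44898506 and was 4239 bp wide with a score of 4.71. It overlapped a pair of DMSO peaks, from 44893958 to 44895557 (1600 bp, score 3.47) and from 44896330 to 44897611 (1282 bp, score 3.52). The arrangement was like that at WNT10B/WNT1, in that the AKBA peak began 310 bp inside the left DMSO edge, ended 895 bp beyond the right one and covered a break of 772 bp, again below the smallest AKBA gap.

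AKBA peaks that overlapped 2 or more DMSO peaks were thus 2 of the 9 in the windows, against 4.43% of the whole AKBA list. At both places the AKBA peak was wide, 5242 bp at WNT10B/WNT1 and 4239 bp at WNT3/WNT9B, against a list median of 742 bp. The share among AKBA peaks of like width was not analysed. When DMSO peaks were joined across gaps below the smallest AKBA gap, each of these places held 1 peak in both lists. The joined DMSO stretch was 4122 bp at WNT10B/WNT1 and 3654 bp at WNT3/WNT9B, and the AKBA peaks were 1.27 and 1.16 times as wide.

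At the second place of the WNT3/WNT9B window both lists had 1 peak. The AKBA peak, from 44927222 to 44930484, was 3263 bp wide, and its score of 6.15 was the highest of the AKBA peaks in the windows (rank 587 of 13155). The DMSO peak, from 44928439 to 44930214, was 1776 bp wide with a score of 3.68 and lay inside it. The AKBA peak reached 1217 bp further to the left and 270 bp further to the right. Near the right end of the window each list had a narrow peak of its own. The AKBA peak from 44972592 to 44973052 was 461 bp wide with a score of 2.31, and the DMSO peak from 44970774 to 44971006 was 233 bp wide with a score of 3.78. They were 1585 bp apart and did not overlap, so this was the only place called in both lists without a common base, and its DMSO peak was the only one in the windows with no AKBA overlap.

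**Figure D5:**
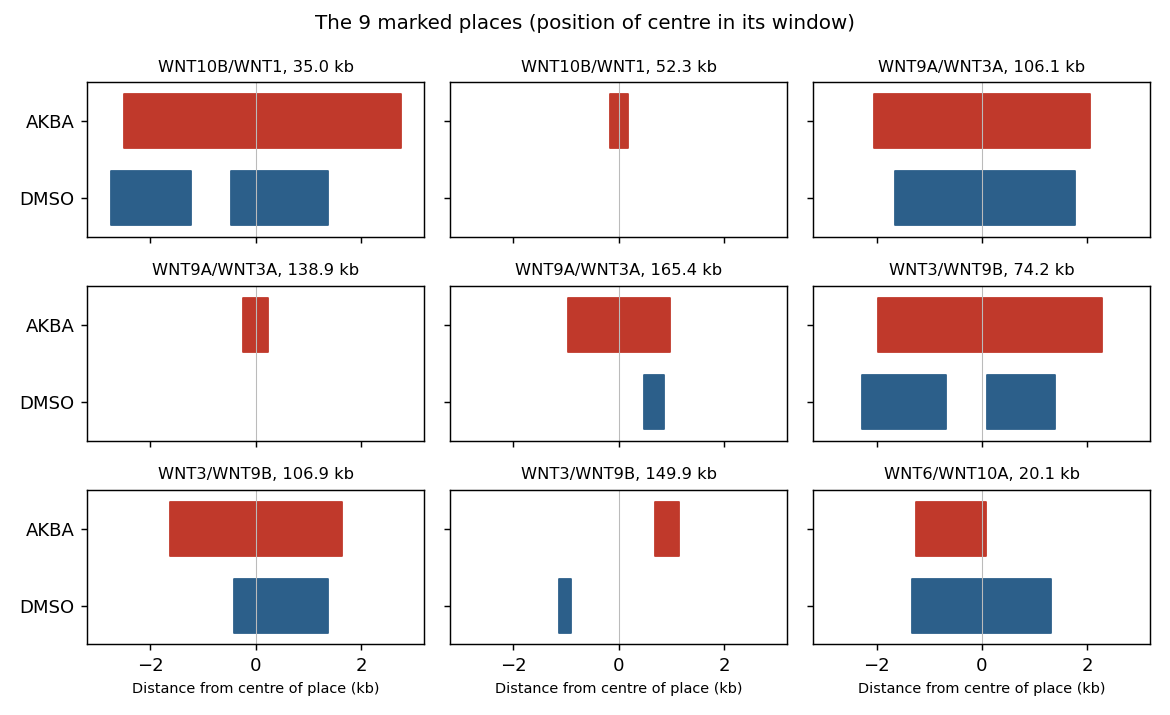
Each panel is 1 of the 9 marked places, named by its window and the position of its centre in kb from the window's start. The x axis is the distance from the centre in kb, with AKBA peaks above DMSO peaks. AKBA peaks span a pair of DMSO peaks at WNT10B/WNT1 and at WNT3/WNT9B, and at WNT6/WNT10A the DMSO peak of 2638 bp is wider than the AKBA peak of 1312 bp.

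The WNT9A/WNT3A window had 6.51 kb in AKBA peaks and 3.80 kb in DMSO peaks. WNT3A is a widely used activator of beta-catenin signalling that is needed in the mouse for the formation of somites, and WNT9A takes part in joint formation in the mouse. The main place, 106 kb into the window, was called at nearly the same width in both lists. The AKBA peak ran from 228193097 to 228197190 (4094 bp, score 5.15) and contained the whole DMSO peak from 228193494 to 228196907 (3414 bp, score 3.98). It was 1.20 times as wide, reaching 397 bp further to the left and 283 bp further to the right, the most even match among the places of this set with 1 peak in each list.

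A second common place of the WNT9A/WNT3A window, 165 kb from its start, differed much more in width. The AKBA peak from 228253433 to 228255375 was 1943 bp wide with a score of 2.87, and the DMSO peak from 228254874 to 228255257 was 384 bp wide. The DMSO score of 2.10 was rank 8772 of 8890, near the bottom of its list. Between these places the AKBA list had a further peak, from 228227692 to 228228166, 475 bp wide with a score of 4.23. The nearest DMSO peak was 26707 bp away.

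The WNT6/WNT10A window was the only one in which DMSO peaks covered more sequence. WNT6 is expressed in surface ectoderm in the chick and mouse, and WNT10A is needed in humans for normal teeth, hair and sweat glands. Each list had 1 peak, about 20.1 kb into the window. The AKBA peak ran from 219722889 to 219724200, with 1312 bp and a score of 3.63, and the DMSO peak from 219722812 to 219725449, with 2638 bp and a score of 3.17. The AKBA peak lay wholly inside the DMSO peak and stopped 1249 bp short of its right edge, while the left edges were 77 bp apart. The difference, AKBA minus DMSO, was -1.33 kb here, against 2.22 kb at WNT10B/WNT1, 2.71 kb at WNT9A/WNT3A and 3.07 kb at WNT3/WNT9B. The value at WNT9A/WNT3A was 1.16 kb among peaks with a score of at least 3, and that at WNT10B/WNT1 was 1.46 kb with the DMSO pair joined.

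Among places where 1 AKBA peak met 1 DMSO peak, the AKBA peak was wider in 3 of 4, against 73.1% of the 3510 such pairs in the whole lists. It reached further at both ends in the same 3, against 39.9% of all pairs. An AKBA peak at most 0.5 times as wide as its DMSO partner, as at WNT6/WNT10A, occurred in 218 of the 3510 pairs (6.21%). The ratio of widths in the 4 pairs ran from 0.497 at WNT6/WNT10A to 5.06 at the second WNT9A/WNT3A place, around a median of 1.42 over all pairs.

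The WNT7A and WNT7B windows, of 102 and 97 kb, held no called peak in either list. WNT7A sets the dorsal side of the limb, and WNT7B acts in lung and placenta development in the mouse. Peaks were called further out on both chromosomes. Within 1 Mb on either side there were 12 AKBA and 11 DMSO peaks around the WNT7A window and 11 AKBA and 8 DMSO peaks around the WNT7B window. The nearest peaks to WNT7A lay to its left, 107.7 kb away in the AKBA list and 108.0 kb away in the DMSO list, and these overlapped each other. The nearest to WNT7B were 512 kb to the left in the AKBA list and 146 kb to the right in the DMSO list. All 11 AKBA peaks within 1 Mb of WNT7B lay to its left, since the nearest to the right was 1235 kb away. Empty stretches of about the size of these windows were common, since 76.8% of tiles of 100 kb had no peak of either list. Part of an AKBA peak lay in 20.5% of tiles and part of a DMSO peak in 15.7%. The empty stretches around both windows were longer than a tile, and how common such longer stretches are was not analysed. At unknown depth an empty window does not show that the mark was absent.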

How the data were processed

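H3K27me3 was profiled by ChIP-seq in HaCaT cells, with 1 library for AKBA and 1 for DMSO. The authors deposited 1 peak list per library, with chromosome, start, end, name and 1 score per peak and no header. The sources used here do not give the unit of that score, the use of input DNA, the threshold or any duplicate filter. The submitters' processing notes name BWA, STAR and MACS2 without version, and build hg19. Peaks overlapping the 6 windows by at least 1 bp were taken with pandas 2.3.3 and numpy 2.4.6 in Python 3.11.15 (intervals with scipy 1.17.1), and bases were clipped to the windows. Overlap counts were checked on simulated data and equalled those of bedtools 2.31.1. Positions are 1-based hg19.

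Windows, genes and settings were chosen with earlier results of these data known. In each window the widest and highest-scoring peak of each list were to be named, or all where a list held 5 or fewer, so all 18 are named. RefSeq tables of GRCh38.p14 gave gene order, strand and promoters only. An hg19 annotation was not used here, so no peak was placed against a gene, and 9 other WNT ligand genes were not analysed here. Peak lists cannot check the cell type against its markers. No test across libraries was possible with 1 per condition. The alternatives were a stricter score, equal peak numbers, a minimum width, merging, joining of DMSO peaks, other window edges and other definitions of overlap.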

Additional observations from a re-analysis of the deposited data

How the results depend on the processing

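The covered bases stayed higher with AKBA over the 6 windows, and the direction in each of the 4 windows with peaks held, under the 7 alternatives run on bases. The shares of overlapping peaks fell to 22.2% for AKBA and 22.2% for DMSO peaks when 50% of both peaks had to overlap, against 66.7% and 88.9% with 1 bp. The whole lists gave 14.0% and 20.8% under that rule. With both lists restricted to peaks of at least 1 kb, 83.3% of the 6 AKBA peaks and 100% of the 7 DMSO peaks were shared, since the DMSO partner of 384 bp drops out. The ratio of peak numbers was below 1 at 0.875 with a score of at least 3, 0.889 with equal numbers from each list and 0.857 at 1 kb, and was 1.29 with merging or joining. Of 28 single-window differences, 25 stayed within 1.5 times their value, but many were unchanged because the setting altered no peak of that window. At WNT6/WNT10A the difference was -1.33 kb under every setting. Merging and joining gave the same difference as each other in each window. The difference at WNT10B/WNT1 was 1.46 kb, against 2.22 kb, with peaks merged within 5 kb or DMSO peaks joined across gaps up to 856 bp, settings that leave 9 AKBA and 7 DMSO peaks. At a score of at least 3, which removes the AKBA peak of 1943 bp and its DMSO partner of 384 bp, the difference at WNT9A/WNT3A was 1.16 kb, against 2.71 kb. The midpoint rule and windows widened by 20 kb changed none of the peaks in the set. No paired analysis was possible because each condition had 1 library. Unknown depth and the small number of peaks, 9 per list, limit every value.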

Other observations

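Sequence close to the WNT windows differed in how densely it was called. Within 100 kb on either side of the WNT6/WNT10A window there were 6 AKBA and 10 DMSO peaks, covering 18.9 kb and 13.1 kb, and 5 of these AKBA and 9 of these DMSO peaks overlapped the other list. All of these peaks lay on the right side. The nearest peak to the left was 789 kb away in the AKBA list and 728 kb away in the DMSO list. So at the only window where DMSO peaks covered more bases, AKBA peaks covered more in the right flank. The flanks of WNT10B/WNT1 held 2 AKBA peaks over 6.04 kb and 2 DMSO peaks over 3.36 kb. Those of WNT3/WNT9B held 1 AKBA peak over 1.67 kb and 2 DMSO peaks over 1.57 kb. The flanks of WNT9A/WNT3A, WNT7A and WNT7B held no peak of either list.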
